A study of Mus musculus with 12 samples.

Results

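Day 1 after removal of doxycycline (Dox) was set against days 0 and 3 together, to find genes of Esrrb_R mouse embryonic stem cells whose messenger RNA peaked or dipped in passing. Of the 12 arrays of the series, 9 enter this comparison: 3 of day 1, 3 of day 0 and 3 of day 3. All 19938 genes with a probe set of a single symbol were measured, so the genes were not chosen by their values. For each gene the contrast is the mean log2 signal of day 1 minus the average of the means of days 0 and 3. Esrrb_R is a mouse embryonic stem cell line whose own Esrrb is held down by a short hairpin RNA, while a GFP-tagged copy that escapes the hairpin is made as long as Dox is given. The day 0 cultures had 1 µg/ml Dox, and the cultures of days 1, 3 and 5 had none. All cultures carried both constructs and grew in serum with Lif on gelatin without feeder cells, although the line is otherwise kept on mouse embryonic fibroblasts. Each day had 3 biological replicates of this 1 line. Loss of Esrrb, withdrawal of Dox and time since plating cannot be told apart, since no array is a control for withdrawal or for time alone.

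Esrrb is an orphan nuclear receptor that, with Nanog, Klf4 and Tfcp2l1, holds mouse embryonic stem cells in the naive state of the early epiblast. Cells that lose this network pass through an intermediate state towards the primed epiblast before genes of the germ layers come on, and the genes of that intermediate state are raised only for a time. A contrast against the average of 2 days is also moved by a gene that changes once and stays changed, so the shape of each course was recorded beside the call.

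The arrays were alike in correlation and median signal but not in scatter. The weights limma estimated for replicates 1, 2 and 3, higher for less scattered arrays, were 1.48, 0.66 and 0.54 at day 0. They were 1.99, 1.26 and 1.11 at day 1 and 0.89, 1.16 and 1.37 at day 3. The correlation of each array with the mean of the other 2 arrays of its day was between 0.997 and 0.998, and the median log2 signal of the genes lay between 7.28 and 7.35. The mean log2 signal of 8 stem cell markers was 11.96 to 12.00 on the day 1 arrays, against 12.12 to 12.17 at day 0 and 11.78 to 11.80 at day 3. That of 18 fibroblast markers was 7.55 on each of the day 1 arrays, against 7.56 to 7.66 at day 0 and 7.06 to 7.10 at day 3. That of 18 trophectoderm markers was 7.93 to 7.97 at day 1, against 7.88 to 7.96 at day 0 and 7.88 to 7.94 at day 3. That of 19 markers of primitive and visceral endoderm was 9.96 to 9.97 at day 1, against 9.73 to 9.82 at day 0 and 9.84 to 9.95 at day 3. Of 18 markers of cells resembling the 2-cell embryo only 8 were measured, at 6.19 to 6.35 at day 1, against 6.12 to 6.43 at day 0 and 5.99 to 6.07 at day 3. Arrays have no read depth, and 3 of them a day limit the precision: the median SD over 3 arrays of a day was 0.08 and the median standard error of the contrast 0.07. In bulk RNA, fewer cells of a type and less RNA per cell cannot be told apart.

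At day 1, 1339 genes were higher than the average of days 0 and 3 and 765 were lower, by limma with an adjusted p under 0.05. These were 6.72% and 3.84% of the genes tested. Counts of called members of lists and families below are to be read against these shares. The median contrast of all genes was 0.003. Most of the calls were not turns at day 1. Of the genes called higher, 373 (1.87% of all genes) were also called higher against day 0 and against day 3 alone, and are named peaks here. Of those called lower, 124 (0.622%) were called lower against both days, and are named dips. Of the other genes called higher, 694 were called only against day 3, 222 only against day 0, and 22 against neither day alone. Of the other genes called lower, 427 were called only against day 3, 157 only against day 0, and 9 against neither. The rest moved on in 1 direction through the 3 days: 10 that climbed and 18 that fell among those called higher, and 23 that fell and 25 that climbed among those called lower. By day 1 against day 0 alone, 6.45% of all genes were called higher and 4.48% lower. By day 1 against day 3 they were 11.6% and 9.2%, and by day 3 against day 0 13.5% and 13.1%. These comparisons share arrays.

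The turns were small. The contrast of the peaks had a median of 0.34 and a highest value of 1.65, and that of the dips a median of -0.32 and a lowest value of -0.90. Only 31 peaks and 3 dips stood at least 0.5 from both days on the log2 scale. On all 3 day 1 arrays 1410 genes (7.07%) lay above the 6 arrays of days 0 and 3 and 670 (3.36%) below them, among them all 373 peaks and 121 of the 124 dips. Since every peak and nearly every dip lay apart in this way, it is no added support where given for a single gene below. At day 3, 289 peaks did not differ from day 0 by the test, 33 were above day 0 and 51 below it, and of the dips 100 did not differ, 5 were above and 19 below. The counts fell where a day 1 array was left out. Without day 1 replicate 1, 2 or 3, in that order, 702, 630 and 638 genes were higher, 367, 371 and 313 lower, 227, 208 and 196 were peaks and 59, 80 and 63 dips. Without day 0 replicate 1 there were 245 peaks and 76 dips, and without day 3 replicate 3 there were 76 dips. The shape of 142 peaks and 35 dips held without any 1 of the 12 arrays. Quantile normalization of the arrays anew turned the balance towards lower values, with 1184 higher, 1012 lower, 332 peaks and 192 dips. Of 13768 probe sets with no symbol or several, 1.3% were higher and 1.79% lower.

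**Figure D1:**
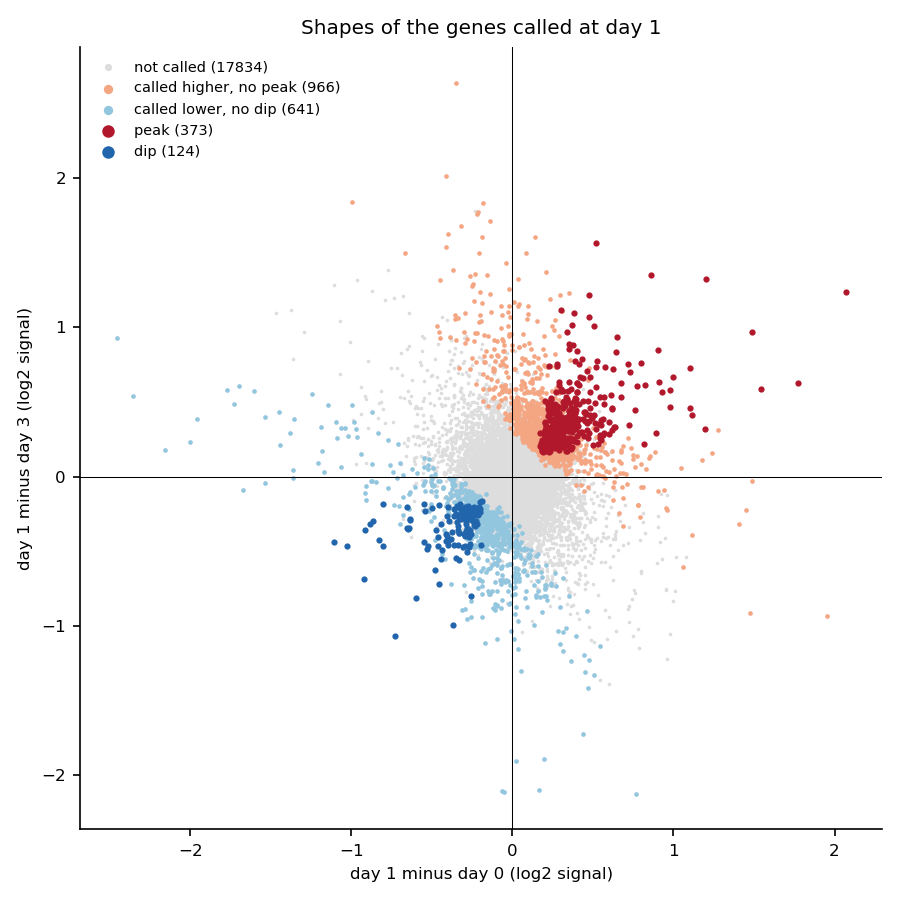
Difference of day 1 from day 0 (horizontal, log2 signal) and from day 3 (vertical, log2 signal) for each of 19938 genes. The 373 peaks lie in the upper right quadrant and the 124 dips in the lower left, while the other 966 genes called higher and 641 called lower lie along the axes and beyond them.

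The largest peaks came from several classes of gene. Rassf9, a Ras association domain protein, read 6.32, 6.33 and 6.37 at day 1, against 4.82, 4.78 and 4.80 at day 0 and 5.82, 5.77 and 5.67 at day 3. Its lowest day 1 array stood above the highest of the other 6, and its contrast was 1.07 (standard error 0.05, adjusted p = 5.2e-07 from limma). Lgals2, the sugar-binding protein galectin-2, read 9.66, 9.56 and 9.87 at day 1, against 7.86, 8.0 and 7.90 at day 0 and 8.86, 9.30 and 9.04 at day 3, with a contrast of 1.20 (standard error 0.10, adjusted p = 2.5e-05 from limma). Unlike Rassf9, which was still above its day 0 level at day 5, Lgals2 had a mean of 6.61 at day 5, below its 7.92 at day 0. Wt1, a zinc finger factor of kidney and gonad, read 8.06, 8.18 and 8.30 at day 1, against 7.07, 7.0 and 7.16 at day 0 and 7.28, 7.57 and 7.51 at day 3, and its contrast was 0.91 (standard error 0.08, adjusted p = 4.3e-05 from limma). Tfec, a factor of the Mitf family, read 10.05, 10.05 and 9.89 at day 1, against 9.55, 9.42 and 9.46 at day 0 and 8.52, 8.43 and 8.34 at day 3. It turned within a fall, since day 3 was below day 0, and its contrast was 1.04 (standard error 0.08, adjusted p = 1.8e-05 from limma). Slc40a1, the iron exporter ferroportin, stayed above its day 0 level after the peak, with 9.46, 9.48 and 9.44 at day 1, against 8.38, 8.47 and 8.20 at day 0 and 9.0, 9.01 and 8.99 at day 3 and a contrast of 0.78. The clone symbol Gm10636 and the olfactory receptor Olfr307, both left out by the naming rule, had contrasts of 1.65 and 1.27 and lay apart from both days on all arrays.

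Genes of the cell cycle were among the peaks without moving as a group. Cdkn1c, the inhibitor p57 of cyclin-dependent kinases, read 10.80, 10.83 and 10.90 at day 1, against 9.99, 9.79 and 9.82 at day 0 and 10.23, 10.34 and 10.23 at day 3 (contrast 0.78, standard error 0.05, adjusted p = 1.7e-05 from limma). Ccnd1, cyclin D1, which drives entry into S phase, read 10.54, 10.57 and 10.56 at day 1, against 10.05, 10.01 and 10.09 at day 0 and 10.02, 10.11 and 10.07 at day 3 (contrast 0.50, standard error 0.06, adjusted p = 5.1e-04 from limma). The inhibitor and the driver thus stood high on the same 3 arrays. Ccno, a cyclin of cells with many cilia, read 7.49, 7.57 and 7.73 at day 1, against 6.55, 6.48 and 6.77 at day 0 and 6.80, 7.0 and 6.99 at day 3, a contrast of 0.83. Zfp428, a zinc finger protein not counted here as a gene of the cell cycle, was also a peak. It read 8.24, 8.26 and 8.31 at day 1, against 7.69, 7.58 and 7.59 at day 0 and 7.31, 7.21 and 7.48 at day 3, a contrast of 0.79. Of 23 genes of mitosis, 0 were higher and 4 lower at day 1, of which Nusap1, of the spindle, was a dip (-0.27), with a median contrast of -0.05. The others were Bub1 (-0.17), Cenpf (-0.21) and Mki67 (-0.14), each with an adjusted p between 0.036 and 0.048 from limma. No more than 1 mitosis gene was lower without day 0 replicate 1, any 1 of the day 1 replicates or day 3 replicate 1 or 3, and 2 were without day 0 replicate 2, day 3 replicate 2 or day 5 replicate 3. Mki67 was also lost without day 0 replicate 3 or day 5 replicate 1 (adjusted p = 0.052 from limma in each). Nusap1 was no longer a dip without any 1 of 6 arrays, and no longer called without any 1 of 2 of them. Of 23 replication genes, 3 were higher (13%, against 6.72% of all genes) and 0 lower, none of them a peak. At most 1 was higher without any 1 array of days 0, 1 or 3 other than day 0 replicate 3. After a correction for gene length 1 was higher.

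Wnt target genes, which the Tcf and Lef factors switch on when beta-catenin is stable, held 3 peaks. Of 15 measured, 5 were higher and 0 lower, with a median contrast of 0.04. Lef1, itself one of these factors and a gene of the primed epiblast, read 9.33, 9.37 and 9.43 at day 1, against 8.66, 8.40 and 8.36 at day 0 and 8.48, 8.61 and 8.48 at day 3. All day 1 arrays stood above those of days 0 and 3, and the contrast was 0.88 (standard error 0.07, adjusted p = 2.4e-05 from limma). Dkk1, a secreted inhibitor of Wnt receptors, read 9.61, 9.82 and 9.71 at day 1, against 9.24, 9.22 and 9.25 at day 0 and 8.53, 8.54 and 8.42 at day 3, and its contrast was 0.85 (standard error 0.06, adjusted p = 1.8e-05 from limma). Dkk1 ended below its starting level, whereas Lef1 at day 3 stood within the range of day 0. The peak of Ccnd1 is the third, and Notum (contrast 0.35) and Tnfrsf19 (contrast 0.27) were called without being peaks. Tnfrsf19 had an adjusted p of 0.06 to 0.15 from limma without day 0 replicate 1 or 2, any 1 array of days 1 and 3 or day 5 replicate 3. No Wnt target of this list dipped. Among Nodal, activin and Bmp targets, 6 of 19 were higher and 0 lower (median 0.10). Lefty1, the feedback inhibitor of Nodal, read 9.68, 9.61 and 9.82 at day 1, against 8.27, 8.47 and 8.54 at day 0 and 9.34, 9.38 and 9.45 at day 3. It rose by day 1 and was still up at day 3, with a contrast of 0.79 (adjusted p = 2.8e-04 from limma), and Skil, a Smad corepressor, did the same (0.38). Msx2, a Bmp target, was the 1 peak of the list (0.28). Its call against day 0 went to an adjusted p of 0.072, 0.085, 0.08 and 0.11 from limma without day 0 replicate 1 or 2 and day 1 replicate 1 or 2.

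Targets of Lif and Stat3, the pathway that serum with Lif keeps on in these cells, included the peaks Myc, Gbx2 and Socs2 among 4 higher and 0 lower of 21 measured (median 0.06). Myc, a transcription factor that binds the E-box with Max, read 10.35, 10.43 and 10.35 at day 1, against 9.93, 10.0 and 9.77 at day 0 and 9.11, 9.38 and 9.42 at day 3. The day 1 arrays stood above those of days 0 and 3, day 3 fell below day 0, and the contrast was 0.78 (standard error 0.09, adjusted p = 2.1e-04 from limma). Gbx2, a homeobox factor, read 9.28, 9.38 and 9.27 at day 1, against 8.98, 8.99 and 9.05 at day 0 and 8.15, 8.24 and 8.19 at day 3, with a contrast of 0.71 (standard error 0.05, adjusted p = 2.3e-05 from limma). As for Myc, the larger part of its contrast was the drop after day 1. Socs2, an inhibitor of cytokine signaling, had a contrast of 0.28. Its difference from day 3 went to an adjusted p of 0.054, 0.057 and 0.052 from limma without day 1 replicate 3, day 3 replicate 1 and day 3 replicate 3. Max, the partner of Myc, was also a peak (0.24) and was named after its values were seen. Its call against day 0 did not pass without any 1 of the 3 day 0 arrays, any 1 of the 3 day 1 arrays or day 3 replicate 2, with adjusted p-values of 0.054 to 0.11 from limma. Of 20 genes of Fgf and Erk feedback, 6 were higher and 1 lower (median 0.09). Spry4, an inhibitor of receptor tyrosine kinases, led those that were no peak (0.53). The 1 that was lower, the receptor Fgfr2 (-0.26), had dropped by day 1. The count higher was 3 without day 1 replicate 2 or 3. Fgfr2 was no longer called without day 1 replicate 3 (adjusted p = 0.052 from limma), and without day 5 replicate 2 there were 2 lower.

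Primed epiblast genes, which come on once the embryo implants, held 4 peaks. Of 17 measured, 7 were higher and 0 lower, with a median contrast of 0.18. Fgf15, a secreted growth factor, read 10.01, 10.02 and 10.14 at day 1, against 8.71, 9.03 and 8.85 at day 0 and 9.76, 9.83 and 9.61 at day 3, a contrast of 0.76 (standard error 0.08, adjusted p = 1.7e-04 from limma). It stayed close to its peak at day 3, and the call against day 3 (adjusted p = 0.03 from limma) went to between 0.053 and 0.13 without any 1 of the day 1 arrays or without day 3 replicate 1 or 3. Grhl2, an epithelial factor of the epiblast, read 9.06, 8.99 and 8.98 at day 1, against 8.28, 8.31 and 8.12 at day 0 and 8.38, 8.42 and 8.40 at day 3, a contrast of 0.69 (standard error 0.06, adjusted p = 4.8e-05 from limma). Grhl2 held its shape without any 1 array. Foxd3, a forkhead repressor, read 8.04, 8.21 and 7.94 at day 1, against 7.68, 7.69 and 7.75 at day 0 and 7.53, 7.78 and 7.63 at day 3, a contrast of 0.38, and without day 1 replicate 2 its adjusted p against day 0 was 0.059 from limma. The enzyme Dnmt3a (0.30, with an adjusted p of 0.059 and 0.06 without day 1 replicates 1 and 2), the kinase Pim2 (0.28) and the factor Pou3f1 (0.31) were called without being peaks. Pim2 had an adjusted p of 0.079 and 0.11 without day 1 replicates 1 and 3, and Pou3f1 one of 0.078, 0.11 and 0.051 without day 1 replicates 2 and 3 and day 3 replicate 3, from limma. Transcription factors outside the lists, named after their values were seen, had the same shape. They were Hhex (0.65), a homeobox factor, Tcf15 (0.65), a basic helix-loop-helix factor, and Hesx1 (0.69), a homeobox factor. Hesx1 lost its call against day 0 without day 0 replicate 1 or 3, any 1 array of days 1 and 3, or day 5 replicate 2, with adjusted p-values of 0.051 to 0.14 from limma.

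The naive network gave 7 higher and 3 lower genes of 19, none of them a peak (median 0.20). The 3 lower were Esrrb, Tfcp2l1 and Nanog. Esrrb itself read 9.09, 9.15 and 9.16 at day 1, against 11.59, 11.54 and 11.63 at day 0 and 8.20, 8.07 and 8.34 at day 3, and moved on down through the 3 days, with a contrast of -0.76 (standard error 0.06, adjusted p = 2.4e-05 from limma). Tfcp2l1, a Stat3 target of the naive network, took the same course, with a contrast of -0.55. Nanog, a homeobox factor of pluripotency, read 11.23, 11.29 and 11.16 at day 1, against 11.96, 12.14 and 11.99 at day 0 and 11.44, 11.40 and 11.40 at day 3. Its day 1 arrays were the lowest of the 9, and its contrast was -0.49 (standard error 0.05, adjusted p = 1.5e-04 from limma). The difference between days 1 and 3 was -0.18 with an adjusted p of 0.047, which went to between 0.05 and 0.18 without any 1 array of days 1, 3 or 5. The contrast itself remained called in each of these fits, with adjusted p-values from 0.00025 to 0.0019. Of the 7 called higher, Klf2 stood above both days (0.34) without passing the test against day 0, and Nr0b1, an orphan receptor, fell at both steps (contrast 0.42, with an adjusted p of 0.058, 0.11 and 0.057 from limma without day 1 replicates 1, 2 and 3), to a day 1 mean of 11.65, against 12.65 at day 0 and 9.81 at day 3. A gene that falls less in the first day than in the next 2 is called higher by this contrast. The count higher was 2 without day 1 replicate 1, 1 without replicate 2 and 3 without replicate 3, and also 3 without day 3 replicate 2 or 3. Of 21 general pluripotency genes, 4 were higher and 0 lower, none a peak, and 2 were higher without day 1 replicate 2 or 3. The 4 were Dppa2 (0.51), Dppa4 (0.33), Gdf3 (0.30) and Zscan10 (0.18). Dppa4 had an adjusted p of 0.059, 0.058 and 0.056 without day 1 replicates 1, 2 and 3. Zscan10 had an adjusted p of 0.052 to 0.17 from limma without day 0 replicate 1, day 1 replicate 2 or 3 or day 3 replicate 1 or 3. For Pou5f1 (0.06), Sox2 (-0.04), Klf4 (-0.07), Sall4 (0.03), Lin28a (0.12), Rnf125 (0.25), Krr1 (0.10), Sumo3 (0.05) and Gli2 (0.04) the contrast did not pass the test, and Trim25 was called (0.22) by its drop after day 1.

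**Figure D2:**
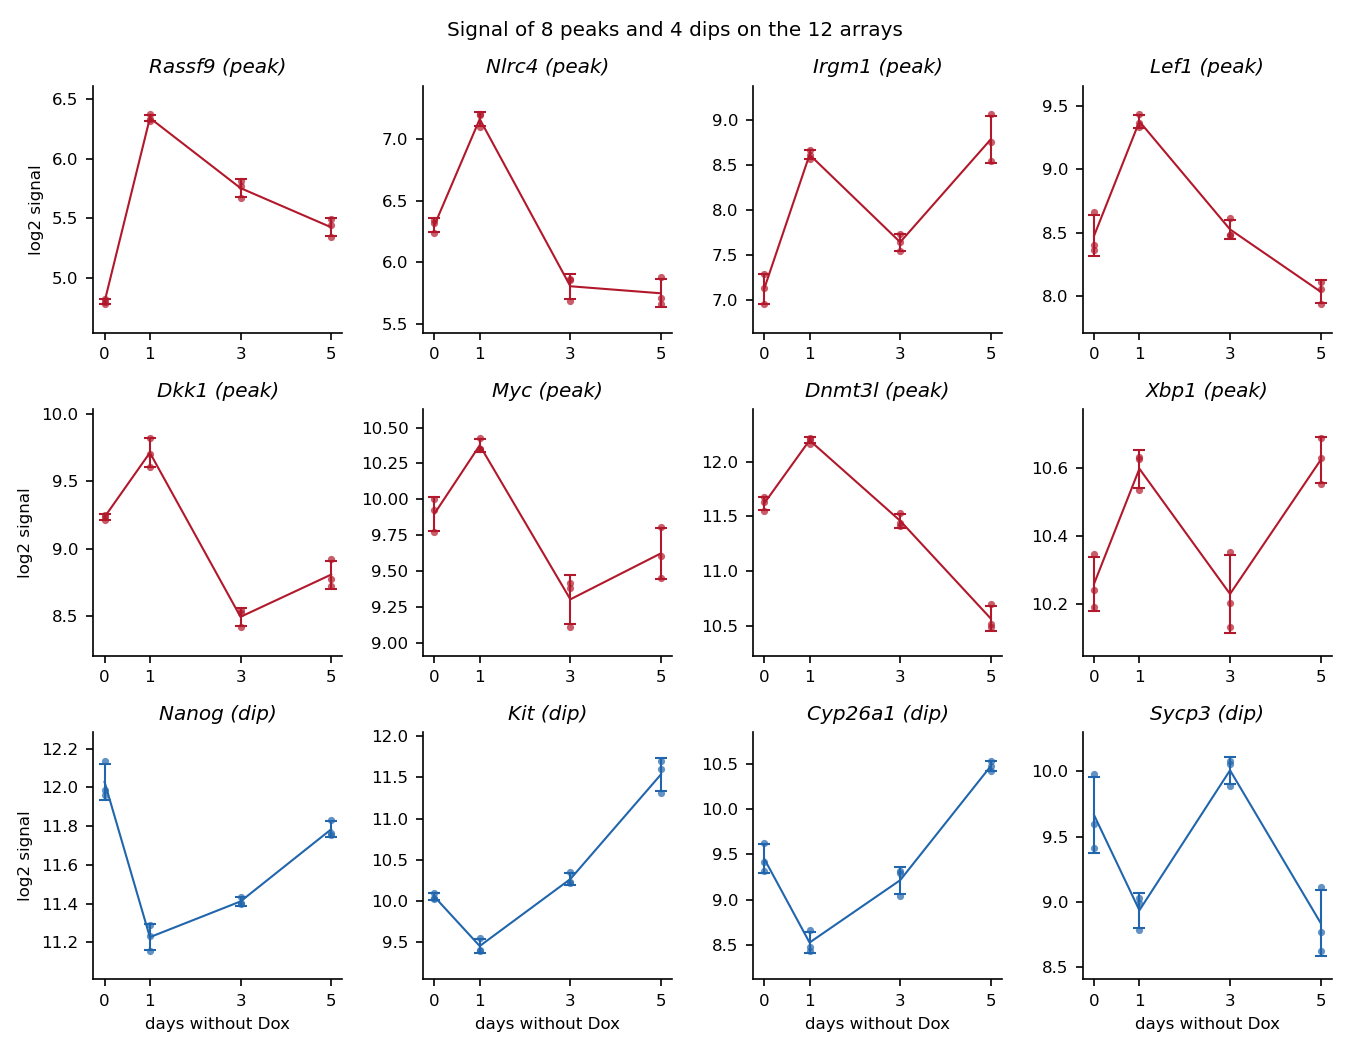
Log2 signal of 8 peaks (red) and 4 dips (blue) over days 0, 1, 3 and 5 without Dox. Points are arrays, lines join the day means and bars show 1 SD over 3 arrays, on a scale of its own in each panel. Rassf9, Nlrc4 and Lef1 came down after day 1 and Irgm1 and Xbp1 were high again at day 5, whereas Kit and Cyp26a1 ended above day 0.

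Some genes of innate immunity were peaks. Irgm1, a GTPase that interferon induces in macrophages, read 8.61, 8.67 and 8.56 at day 1, against 7.13, 7.29 and 6.95 at day 0 and 7.54, 7.65 and 7.73 at day 3, a contrast of 1.23 (standard error 0.10, adjusted p = 2.4e-05 from limma). Nlrc4, the adaptor of the inflammasome that senses flagellin, read 7.09, 7.20 and 7.19 at day 1, against 6.35, 6.24 and 6.32 at day 0 and 5.87, 5.86 and 5.69 at day 3, a contrast of 1.11 (standard error 0.06, adjusted p = 2.6e-06 from limma). Naip6 and Naip5, receptors that bind flagellin and join Nlrc4, had contrasts of 0.78 (adjusted p = 0.0037 from limma) and 0.77 (adjusted p = 0.012 from limma). Naip5 and Naip6 are near-identical genes whose probes can share RNA, so they are not separate evidence. Without day 1 replicate 1 the contrast of Naip5 had an adjusted p of 0.059, and its difference from day 3 went to between 0.05 and 0.12 without any 1 array of days 1 or 3. Nlrc4, Naip5 and Naip6 read between 7.09 and 7.50 on the log2 scale on the day 1 arrays. They were the 3 higher of 6 Naip and Nlrc receptors, with 0 lower and 4 contrasts above 0. Of 21 interferon targets and genes of antigen presentation 3 were higher (14.3%) and 0 lower, none a peak (median 0.04). They were Irf1 (0.28), Gbp3 (0.26) and Trim25, and without day 1 replicate 2 only 1 was higher, with an adjusted p of 0.073 for Trim25 from limma. Gbp3 was at 0.056 to 0.19 without any 1 array of days 0 and 1, day 3 replicate 1 or 2 or day 5 replicate 3. Slfn8 and Slfn9, of the Schlafen family, were the 2 higher and 0 lower of 8 Schlafen genes, and both were peaks (0.40 and 0.72). Slfn8 was no longer called without day 1 replicate 2 or 3 (adjusted p = 0.066 and 0.067 from limma), which left 1, and its call against day 0 was at 0.056 to 0.12 without any 1 array of days 0 and 1 or day 3 replicate 2. The Naip, Nlrc and Schlafen groupings were made after seeing the values.

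Some genes of the germ line and of the visceral endoderm, which surrounds the epiblast, also peaked. Of 19 germline and meiosis genes 7 were higher and 1 lower (median 0.11). Tex19.1, which restrains retrotransposons, read 8.55, 8.46 and 8.54 at day 1, against 8.08, 7.91 and 8.02 at day 0 and 7.68, 7.53 and 7.31 at day 3, a contrast of 0.76 (standard error 0.08, adjusted p = 1.6e-04 from limma). Dnmt3l, the cofactor of the de novo DNA methyltransferases, read 12.20, 12.16 and 12.22 at day 1, against 11.68, 11.55 and 11.63 at day 0 and 11.53, 11.41 and 11.44 at day 3, a contrast of 0.65 (standard error 0.06, adjusted p = 4.3e-05 from limma). Mael, of the piRNA pathway, was the third peak (0.44). Sycp3, of the synaptonemal complex, was the 1 lower and is described with the dips, and without day 0 replicate 3 there were 2 lower. Of 13 DNA methylation genes 3 were higher and 0 lower, with a second peak in Mbd3 (0.28), a subunit of the NuRD complex. Of the 19 endoderm markers, 4 were called higher and 0 lower (median 0.05). Hnf4a, a nuclear receptor of endoderm and liver, read 8.02, 8.18 and 7.98 at day 1, against 7.38, 7.24 and 7.54 at day 0 and 7.45, 7.43 and 7.43 at day 3, a contrast of 0.65 (standard error 0.09, adjusted p = 0.0011 from limma). Amn, which anchors the receptor cubilin at the cell surface, read 9.91, 9.82 and 9.99 at day 1, against 9.25, 9.33 and 9.50 at day 0 and 9.44, 9.39 and 9.29 at day 3, a contrast of 0.54. Cubn, cubilin itself, read 12.78, 12.81 and 12.78 at day 1, against 12.39, 12.32 and 12.34 at day 0 and 12.42, 12.44 and 12.35 at day 3, a contrast of 0.41. The 3 day 1 arrays of each stood above those of days 0 and 3. Only 2 were called without day 1 replicate 2, with an adjusted p of 0.05 for Cubn. Without day 3 replicate 3 that of Cubn against day 3 was 0.061 from limma. Gata4, Gata6 and Sox17 were among the 15 endoderm genes not called.

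Genes of the unfolded protein response, which raises folding capacity in the endoplasmic reticulum, were the list with the highest share called. Of 16 measured 9 were higher and 0 lower, and all 16 contrasts were above 0 (median 0.17). Xbp1, its transcription factor, read 10.53, 10.63 and 10.63 at day 1, against 10.19, 10.24 and 10.35 at day 0 and 10.35, 10.13 and 10.20 at day 3, a contrast of 0.35 (standard error 0.06, adjusted p = 0.0031 from limma). Sdf2l1, a cofactor of the chaperone BiP, read 9.44, 9.45 and 9.49 at day 1, against 9.04, 9.04 and 9.25 at day 0 and 9.25, 9.10 and 9.09 at day 3, a contrast of 0.33. Creld2, a secreted protein of the same response, read 10.51, 10.53 and 10.55 at day 1, against 10.22, 10.25 and 10.24 at day 0 and 10.29, 10.18 and 10.14 at day 3, a contrast of 0.31. All day 1 arrays of the 3 genes stood above those of days 0 and 3. Syvn1, the ubiquitin ligase of protein disposal (0.28), and Hyou1, a chaperone (0.24), were peaks as well. The call of Syvn1 against day 0 went to between 0.068 and 0.11 without day 0 replicate 2 or 3 or any 1 of the day 1 arrays. Hyou1 lost its contrast without day 1 replicate 2 (adjusted p = 0.1 from limma) or replicate 3 (0.069), and its call against 1 of the days without any 1 of the day 0 arrays or day 3 replicate 2 or 3. Without day 1 replicates 1, 2 and 3 in turn, 5, 4 and 4 of the 16 were higher, and 6 were higher after a correction for gene length. Members of dolichol and N-glycan assembly, in the same compartment, were gathered after their values were seen. They gave 7 higher and 0 lower of 18, with 5 peaks, among them Mpdu1 (0.46) and Alg1 (0.35). The count higher was 4 without day 1 replicate 3. Of 23 genes of the amino acid stress response 0 were higher and 4 lower, and without day 1 replicates 1 and 2 the lower numbered 2 and 1. The 4 were Ddit4 (-0.43), Cebpb (-0.22), Psat1 (-0.22) and Asns (-0.19), none of them a dip. Asns had an adjusted p of 0.056 to 0.14 from limma without day 0 replicate 2 or 3, any 1 of the day 1 arrays or day 3 replicate 1 or 3.

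Of 26 genes of ribosome biogenesis 10 were higher and 0 lower, and 24 contrasts were above 0 (median 0.12). Rrp9, which binds the U3 small nucleolar RNA, read 10.47, 10.43 and 10.67 at day 1, against 10.08, 10.21 and 10.25 at day 0 and 10.06, 10.03 and 9.91 at day 3, a contrast of 0.43 (standard error 0.07, adjusted p = 0.003 from limma). Its adjusted p against day 0 was 0.09 without day 0 replicate 1 and 0.1 without day 1 replicate 3. Nolc1, a nucleolar chaperone, had a contrast of 0.23, with an adjusted p of 0.061 from limma without day 1 replicate 2. Without that array, without day 0 replicate 3 or without day 1 replicate 3 its adjusted p against day 0 was 0.076, 0.056 and 0.06. When day 1 replicates 1, 2 and 3 were omitted in turn the count higher was 4, 3 and 5, and it was 6 without day 3 replicate 2 or 3. Further families were gathered after their values were seen. Their counts are to be read against 6.72% higher and 3.84% lower over all genes. Of 25 subunits of RNA polymerases I, II and III, 12 were higher and 0 lower, with 5 peaks, and the largest subunit of polymerase II, Polr2a, read 10.02, 9.97 and 10.06 at day 1, against 9.82, 9.77 and 9.84 at day 0 and 9.68, 9.73 and 9.65 at day 3, a contrast of 0.27. Its call against day 0 went to between 0.055 and 0.094 without day 0 replicate 1 or 2 or day 1 replicate 1 or 3. Of 10 exosome subunits, which trim RNA, 5 were higher and 0 lower, led by Exosc4 (0.33, with an adjusted p against day 3 of 0.056 from limma without day 3 replicate 3). Of 41 tRNA modifying enzymes 13 were higher and 1 lower, with 10 peaks, among them Dus3l (0.37) and Trmt61a (0.33). Of 77 mitochondrial ribosomal proteins 16 were higher and 0 lower. The polymerase count went to 3, 4 and 5 without day 1 replicates 1, 2 and 3 and to 7 without day 3 replicate 3. The exosome count went to 3 without any 1 of the day 1 arrays or day 3 replicate 3, and that of the tRNA enzymes to 8 without day 1 replicate 2 or 3. The single lower tRNA enzyme, Trmt1l, was lost without any 1 array of days 1 or 3 or day 0 replicate 1 or 2. The mitochondrial count went to 6, 6 and 1 without day 1 replicates 1, 2 and 3, and to 9 without day 0 replicate 1 or day 3 replicate 2. Proteins of the cytosolic ribosome itself gave 0 higher and 0 lower of 16 by limma, and the respiratory chain 0 and 0 of 21. Of 20 genes of sterol synthesis 4 were higher and 0 lower, with the peaks Ebp (0.44) and Hsd17b7 (0.33), and 7 were higher without day 0 replicate 2. Ebp went to an adjusted p of 0.051 to 0.12 against day 0 without any 1 of the day 0 arrays or day 1 replicate 2 or 3.

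**Figure D3:**
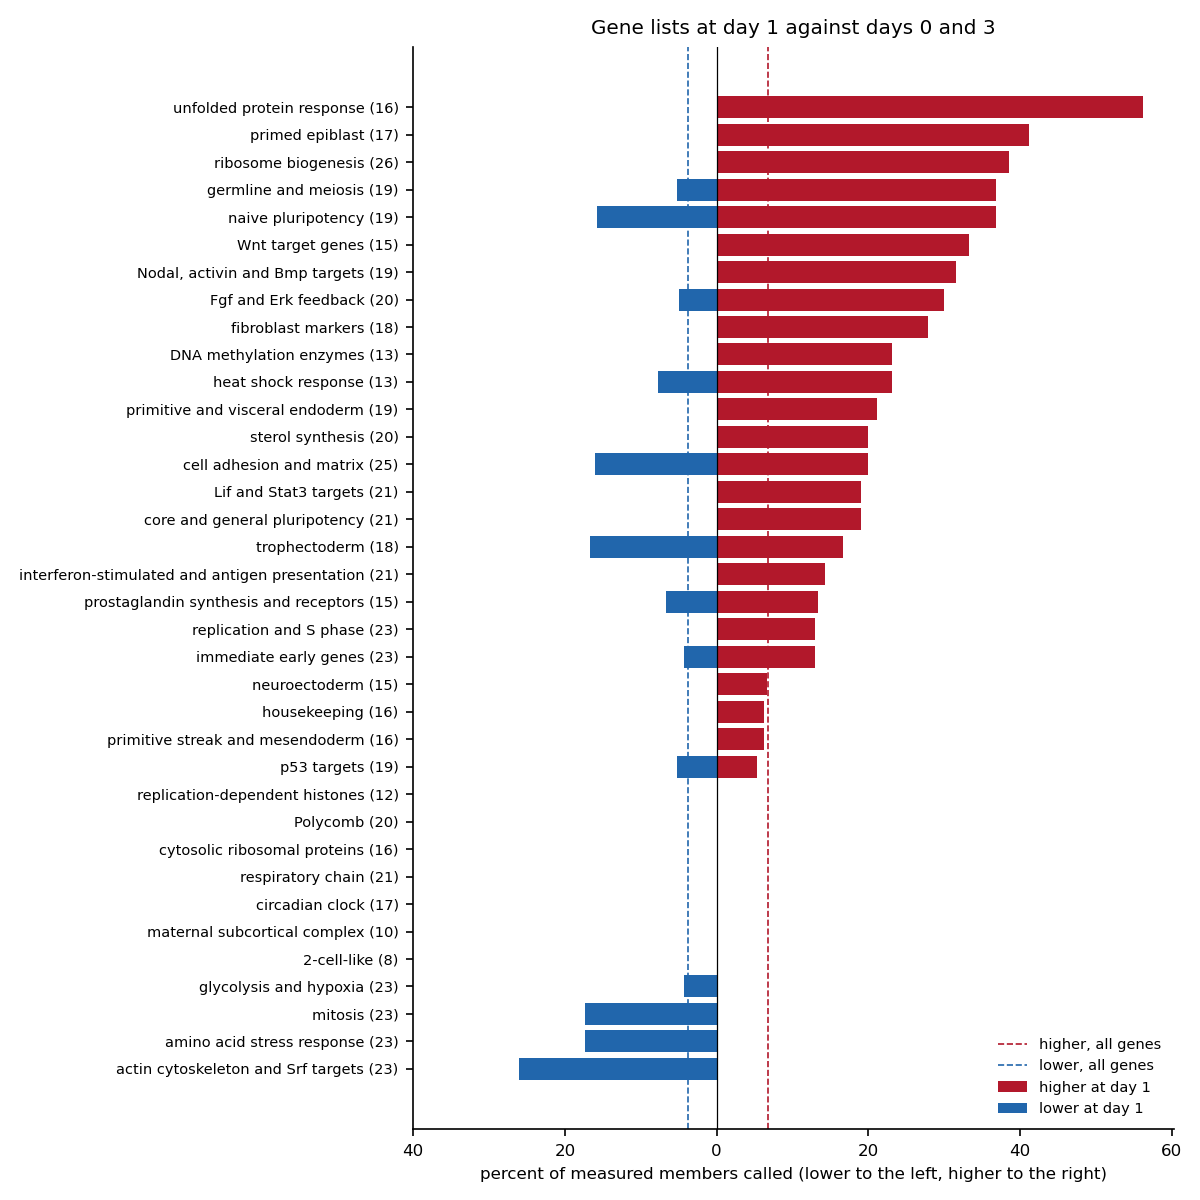
Share of the measured members of 36 gene lists (number in brackets) called higher (red, to the right) and lower (blue, to the left) at day 1 against the average of days 0 and 3, in percent. Dashed lines are the shares over all genes, 6.72% and 3.84%, and the 1 list with 2 measured members is left out. The unfolded protein response stands furthest to the right with 9 of 16.

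Of the dips, Sycp3 read 9.03, 8.99 and 8.78 at day 1, against 9.60, 9.98 and 9.41 at day 0 and 10.08, 10.05 and 9.89 at day 3, with the lowest contrast of all dips at -0.90 (standard error 0.12, adjusted p = 8.9e-04 from limma). It came back to its day 0 level or above by day 3 and was low again at day 5 (mean 8.84). Cyp26a1, which degrades retinoic acid, read 8.48, 8.67 and 8.44 at day 1, against 9.32, 9.62 and 9.42 at day 0 and 9.31, 9.29 and 9.05 at day 3, a contrast of -0.80 (standard error 0.08, adjusted p = 1.1e-04 from limma). Among retinoid genes named after their values were seen, Rdh10, which makes retinaldehyde, ran the other way as a peak (0.45), as did the receptor Rarg (0.60). Kit, the receptor of stem cell factor, read 9.41, 9.56 and 9.40 at day 1, against 10.02, 10.10 and 10.03 at day 0 and 10.35, 10.22 and 10.23 at day 3, a contrast of -0.70 (standard error 0.08, adjusted p = 1.8e-04 from limma). Met, the receptor of hepatocyte growth factor, read 7.77, 7.69 and 7.70 at day 1, against 8.28, 8.34 and 7.99 at day 0 and 8.40, 8.40 and 8.24 at day 3, a contrast of -0.55. Both receptors were at or above their day 0 level by day 3. Nrep, a small neuronal protein, read 8.74, 8.74 and 8.61 at day 1, against 9.82, 9.86 and 9.74 at day 0 and 9.28, 9.11 and 9.02 at day 3, a contrast of -0.77 (standard error 0.07, adjusted p = 5.2e-05 from limma). It had come back only in part by day 3, as had Fam189a2, with 7.71, 7.67 and 7.56 at day 1, against 8.63, 8.70 and 8.69 at day 0 and 8.31, 7.95 and 8.10 at day 3 and a contrast of -0.75. Slc2a12, a glucose transporter, had a contrast of -0.64, Car13, a carbonic anhydrase, one of -0.63, Rnf128, a ubiquitin ligase, one of -0.59, and Lonrf1 one of -0.58. Tm6sf1 (-0.68) and the pseudogene Anp32-ps (-0.51) dipped on all arrays as well. Ccdc68 (-0.64), Med12l (-0.60) and Cyp39a1 (-0.53), a sterol hydroxylase, were more fragile. The adjusted p against day 3 without day 1 replicate 1 was 0.054 for Ccdc68 and 0.067 for Med12l. It was 0.052 without day 1 replicate 3 for Ccdc68 and 0.079 without day 3 replicate 3 for Med12l. For Cyp39a1 that against day 0 was 0.053 to 0.15 without any 1 of the day 0 arrays, day 1 replicate 2 or 3 or day 3 replicate 3.

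Called genes of the actin list and of the kinesins were lower at day 1, but other cytoskeletal genes went both ways. Of 19 unconventional myosins, gathered after their values were seen, 3 were higher (15.8%) and 2 lower (10.5%). With any 1 array left out, 1 to 3 were higher and 1 to 2 lower. Of 23 genes of the actin cytoskeleton, 0 were higher and 6 lower (median -0.16), but only Cald1, caldesmon (-0.29), was a dip. The others waited at day 1 and rose by day 3, such as Cnn1, calponin, with 7.62, 7.59 and 7.49 at day 1, against 7.44, 7.59 and 7.52 at day 0 and 8.86, 8.84 and 8.92 at day 3, and Myh9, non-muscle myosin (-0.34). The count lower was 3 without day 1 replicate 1, and the adjusted p of Cald1 was 0.097 without day 1 replicate 1 and 0.077 without replicate 3. Its call against 1 of the days was at 0.051 to 0.12 without day 0 replicate 1 or day 3 replicate 1 or 3. Of 37 kinesins, a family gathered after its values were seen, 0 were higher and 6 lower, with the dips Kif21b (-0.40) and Kif15 (-0.27). Kif1a, a kinesin of axons, had the largest contrast (-0.64), and rose at both steps. The kinesin count went to 3 and 2 without day 1 replicates 1 and 3, and without replicate 3 Kif15 had an adjusted p of 0.07 from limma, and against day 0 one of 0.068 to 0.1 without day 0 replicate 1 or 2 or day 1 replicate 1. Of 25 adhesion and matrix genes 5 were higher and 4 lower. Cldn4, a tight junction claudin, was the 1 dip, with 9.79, 9.83 and 9.70 at day 1, against 10.0, 10.14 and 10.26 at day 0 and 10.24, 10.19 and 10.26 at day 3 and a contrast of -0.41. Among the 5 higher was Cd44, the hyaluronan receptor (0.41), which dropped after day 1 as the fibroblast markers did. Of those 18 markers 5 were higher and 0 lower (median 0.15), none a peak, with Lox at 8.16, 8.35 and 8.05 at day 1, against 8.77, 8.61 and 8.42 at day 0 and 6.33, 6.04 and 6.14 at day 3. The part of the fibroblast markers in the other results was not tested. Of the markers, 3 were called without day 1 replicate 3, and the adhesion counts ranged from 2 to 5 higher and 1 to 5 lower as any 1 array was left out.

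The largest calls that were no turn came from single steps or steady falls. Ptgs2, the inducible cyclooxygenase, read 9.72, 10.04 and 9.72 at day 1, against 10.26, 10.26 and 10.0 at day 0 and 7.14, 6.92 and 7.49 at day 3, and its contrast of 1.15 came from the drop between days 1 and 3 alone. The long noncoding RNA Platr8 (0.87), the transcript U90926 (0.83) and the lysyl oxidase Lox (0.80) dropped likewise, while Lefty1 had stepped up. Of those called lower, Nat1, an acetyltransferase, read 5.41, 5.38 and 5.22 at day 1, against 7.56, 7.69 and 7.22 at day 0 and 5.22, 5.20 and 5.05 at day 3, a contrast of -0.99. It had dropped by day 1 and stayed low, as had Mgat4c (-0.88), a glycosyltransferase, and Ptprz1 (-0.79), a receptor phosphatase. Lrrc34 (-0.91) and the heme transporter Flvcr2 (-0.79) dropped further after day 1, as Esrrb did. These genes are called by the contrast although none of them turned at day 1. In the other lists, to be read against 6.72% higher and 3.84% lower over all genes, higher and lower genes numbered 3 and 3 of 18 for trophectoderm (16.7% each way), 3 and 1 of 13 for heat shock (23.1% and 7.69%), 3 and 1 of 23 for immediate early genes, 2 and 1 of 15 for prostaglandins, 1 and 1 of 19 for p53 targets, 1 and 0 of 15 for neuroectoderm, 1 and 0 of 16 for primitive streak, 1 and 0 of 16 for housekeeping genes and 0 and 1 of 23 for glycolysis. Without day 1 replicate 1 or 2 the trophectoderm counts were 1 and 1, and without day 1 replicate 3 or day 3 replicate 3 the count lower was 1. The prostaglandin count higher was 1 without day 0 replicate 1 or 3, day 1 replicate 1 or 2 or day 3 replicate 2 or 3, and that lower 0 without day 1 replicate 1. The primitive streak call was absent without any 1 of 9 arrays, the lower p53 call without any 1 of 8, the glycolysis call without any 1 of the day 1 arrays and the lower immediate early call without day 1 replicate 1, while 2 immediate early genes were lower without day 3 replicate 2. There were 0 of either by limma among 17 clock genes, 20 Polycomb genes, 12 histones, 10 genes of the maternal subcortical complex, 8 of the 2-cell embryo and 2 encoded in mitochondria.

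Among 297 microRNA precursors, gathered by their RefSeq type, 4 were higher and 12 lower, with 0 peaks and 1 dip (median -0.02). The 4 higher were 1.35% and the 12 lower 4.04%, against 6.72% and 3.84% of all genes, so the share lower was near that of all genes. The precursors are outside the naming rule and were chosen after their values were seen. Mature strands of the miR-302 and miR-367 cluster, known from pluripotent cells, which holds the largest negative contrasts of the group, and of Mir15b, the dip, with its relative Mir15a, are printed in RNA letters from RefSeq (GRCm38.p6), 5′ to 3′ (miR-302b-3p at chr3:127545275-127545297, miR-302d-3p at chr3:127545665-127545687, miR-302c-3p at chr3:127545406-127545427, miR-367-3p at chr3:127545779-127545800 and miR-15b-5p at chr3:69009775-69009796, all on the plus strand, and miR-15a-5p at chr14:61632075-61632096, minus strand), with the seed, bases 2 to 8, in capitals.
miR-302b-3p: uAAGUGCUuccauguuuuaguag
miR-302d-3p: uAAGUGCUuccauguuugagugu
miR-302c-3p: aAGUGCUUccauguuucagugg
miR-367-3p: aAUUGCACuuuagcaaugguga
miR-15b-5p: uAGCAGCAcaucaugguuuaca
miR-15a-5p: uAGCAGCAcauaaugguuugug
miR-302b-3p and miR-302d-3p share the seed AAGUGCU, which begins 1 base earlier in the RefSeq sequence of miR-302c-3p. miR-367-3p has another, and miR-15b-5p and miR-15a-5p share AGCAGCA. The array measures the precursor region and not the mature strand. Mir302d read 5.81, 5.23 and 5.17 at day 1, against 5.39, 5.46 and 5.56 at day 0 and 7.73, 7.25 and 7.56 at day 3. The precursors of this cluster did not differ from day 0 by the test at day 1 and rose by day 3, so that their contrasts, -1.09 for Mir302d, -1.08 for Mir302a, -0.97 for Mir302c, -0.94 for Mir302b and -0.85 for Mir367, come from the later rise and are no dips. Without day 1 replicate 2 the adjusted p was 0.051 for Mir302a and 0.09 for Mir302b, and without replicate 3 it was 0.062 for Mir367. Mir15b read 5.83, 6.42 and 6.03 at day 1, against 6.70, 6.81 and 6.42 at day 0 and 6.66, 6.40 and 6.54 at day 3, a contrast of -0.49 (adjusted p = 0.023 from limma). Its day 1 arrays overlapped those of day 3, and without day 1 replicate 1 or 3 the adjusted p was 0.12 and 0.099. Its call against 1 of the days was also lost without day 0 replicate 1 or 2, day 3 replicate 1 or 3 or day 5 replicate 1 or 3, at 0.051 to 0.14. Mir15a had a contrast of -0.45, lost without day 0 replicate 1 (0.069) or day 1 replicate 1 (0.16), 2 (0.07) or 3 (0.078). Mir363 rose by day 1 and stood higher still at day 3, with 6.57, 6.87 and 6.95 at day 1, against 4.82, 4.78 and 4.92 at day 0 and 7.68, 7.81 and 7.71 at day 3. The 12 lower went to 5 and 7 without day 1 replicates 1 and 3, and the 4 higher to 1 or 2 without day 0 replicate 2 or 3, day 1 replicate 1 or 2 or any 1 of the day 3 arrays. Of 54 small nucleolar RNAs, which guide modification of ribosomal RNA, 10 were higher and 0 lower (median 0.10), with the peaks Snord35b (0.44), Snord33 (0.41) and Snora70 (0.39). On omission of day 1 replicates 1, 2 and 3 the count higher was 5, 5 and 4, and it was 6 without day 3 replicate 3. Many lie in introns of host genes, so precursor and host RNA cannot be told apart.

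The day 5 mean is not part of the contrast, although the day 5 arrays enter the residual variance of the fit, and with the 9 other arrays alone there were 415 peaks and 130 dips, 345 and 108 of them shared. By day 5 the peaks were spread on both sides of their starting level: the median of day 5 minus day 0 was -0.07 (quartiles -0.26 and 0.11), against -0.02 over all genes. High day 1 means chose the peaks and low ones the dips, so counts of day 5 against day 1 are partly set by that choice. Over all 19938 genes, the day 5 mean was below the day 1 mean in 10931 and above it in 9007. Of the 373 peaks 346 had a day 5 mean below their day 1 mean, and 27 had passed it. Those that passed it included genes of the secretory pathway, Hyou1 (day 5 mean 11.66, day 1 mean 11.32), Creld2 (10.62 and 10.53) and Xbp1 (10.62 and 10.60), with Irgm1 (8.78 and 8.61) and Rdh10 (10.68 and 9.96). For these, day 3 lay between higher levels at days 1 and 5. Others went far below their start, such as Tfec (7.66 at day 5, 9.48 at day 0), Cubn (11.02 and 12.35), Amn (8.06 and 9.36) and Dnmt3l (10.57 and 11.62). Of the 124 dips 114 had a day 5 mean above their day 1 mean, and 10 were lower still, among them Fut9 (7.07 and 7.90), a fucosyltransferase, and Satb1 (8.65 and 8.92), a chromatin organizer. Against day 3 these had adjusted p-values of 0.054 and 0.057 for Fut9 without day 1 replicate 1 and day 3 replicate 3, and of 0.053 to 0.057 for Satb1 without day 1 replicate 2 or 3 or day 3 replicate 2, from limma. Kit (11.54 at day 5, 10.05 at day 0), Cyp26a1 (10.47 and 9.45) and Cldn4 (10.98 and 10.13) went well above their start. Nanog came back to 11.78 at day 5, against 12.03 at day 0.

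**Figure D4:**
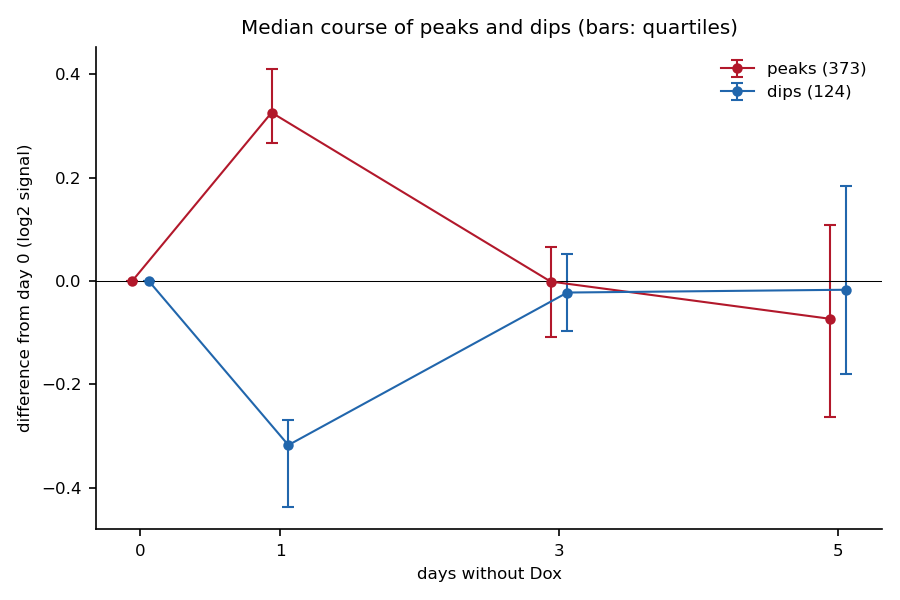
Median difference from day 0 (log2 signal) of the 373 peaks (red) and 124 dips (blue) at days 1, 3 and 5 without Dox, with bars from the lower to the upper quartile over genes. The differences among days 0, 1 and 3 chose the genes, and the day 5 arrays entered only through the residual variance. At day 5 the medians were -0.07 for peaks and -0.02 for dips.

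Peaks and dips differed in the length of their genes. The median genomic span was 13.2 kb for 365 peaks with a RefSeq protein-coding span, 55.9 kb for 119 dips and 18.9 kb for 16527 genes not called. Over all genes with a mean log2 signal of at least 6, in 5 equal groups by span, 11% of the shortest and 5.69% of the longest genes were higher at day 1, and 2.0% of the shortest and 10.3% of the longest were lower. The day 1 arrays had a median deviation from the gene means of 0.0193 to 0.0348 in the shortest group and of -0.0454 to -0.0177 in the longest. In the shortest group the day 0 arrays ranged from -0.0323 to 0.0492 and the day 3 arrays from -0.0151 to 0.0113. In the longest group they ranged from -0.0372 to -0.001 at day 0, which overlaps the range of day 1, and from 0.0038 to 0.0116 at day 3. The trend with length was then removed from each array, a step chosen after seeing the data. After that, 316 peaks and 128 dips were found among 18562 genes, 293 and 105 of them shared with the uncorrected fit, and 9 mitochondrial ribosomal proteins, 11 polymerase subunits, 8 ribosome biogenesis genes and 11 tRNA enzymes were higher. What makes the arrays differ with length was not tested.

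**Figure D5:**
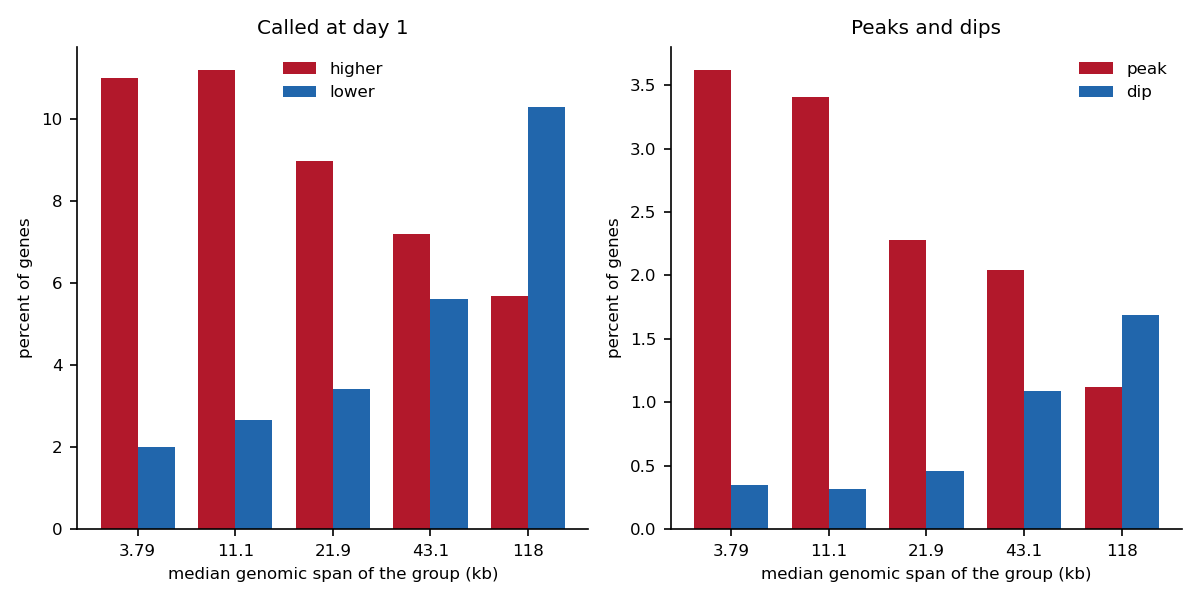
Percent of genes called higher and lower (left) and of peaks and dips (right) at day 1 against days 0 and 3, in 5 equal groups of genes with a mean log2 signal of at least 6 ordered by genomic span, labelled by the median span in kb. The share lower is 2.0%, 2.67%, 3.41%, 5.62% and 10.3% from the shortest to the longest group, and the share higher is 11%, 11.2%, 8.99%, 7.2% and 5.69%.

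Promoter windows from RefSeq (GRCm38.p6), 250 bases before to 50 after the start of a gene, were searched for 5 sites on either strand. The E-box CACGTG reads the same on both strands and is a site of Myc with Max, but which factors bind it here was not tested. This E-box stood in 55 of 304 peaks with a window (18.1%) and 11 of 91 dips (12.1%). It stood in 9.5% of all 15614 genes with a window and in 10.4% of those not called with a mean log2 signal of at least 6. The other sites were at or near the level of all genes among the peaks. They were the Esrrb site TCAAGGTCA (0.329% of peaks, 0.346% of all), the Tcf and Lef site CTTTGAT (3.29% and 3.71%), the cyclic AMP site TGACGTCA (2.96% and 2.72%) and the E2F site TTTCGCGC (0.329% and 0.519%). In dips they were 0%, 1.1%, 2.2% and 0% in the same order. The stretches around the E-box are shown for 3 peaks and 2 dips described above whose E-box lies before the start, with the E-box in capitals. The promoter of Lef1 has it at position -79 from the start (chr3:131156195-131156240, plus strand), Gbx2 at -74 (chr1:89931225-89931270, minus strand), Dnmt3l at -44 (chr10:78049778-78049823, plus strand), Sycp3 at -64 (chr10:88459503-88459548, plus strand) and Met at -126 (chr6:17463811-17463856, plus strand).
Lef1: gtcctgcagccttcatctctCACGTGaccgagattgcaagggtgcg
Gbx2: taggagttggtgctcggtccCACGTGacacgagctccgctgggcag
Dnmt3l: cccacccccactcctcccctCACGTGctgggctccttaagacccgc
Sycp3: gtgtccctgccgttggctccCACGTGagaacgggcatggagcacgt
Met: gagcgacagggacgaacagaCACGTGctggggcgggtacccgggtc
Lef1, Gbx2 and Dnmt3l peaked at day 1 and Sycp3 and Met dipped, so the site stood in genes of either direction. A match describes these letters and does not show binding, and the shares are given with no test.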

How the data were processed

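RNA of 12 cultures was hybridized to 1-color Affymetrix Mouse Gene 1.0 ST arrays. The deposited values are log2 signals that the authors made from the scans by RMA (background correction, quantile normalization and probe set summary) in Expression Console (version not given in the sources used here). RMA forces probe values to a common distribution before their summary, so a shift shared by all genes would not be seen. The array medians of the summarized probe sets still ran from 6.92 to 7.05. Of 35557 probe sets, 21789 had 1 symbol and were averaged to 19938 genes. The others, 1621 with several symbols and 12147 with none, were read from a separate fit of all 35557 probe sets, adjusted over those. A model with a mean for each of 4 days was fitted to the 12 arrays in limma 3.58.1 (R 4.3.3), with 8 residual and 4.63 prior degrees of freedom. Adjusted p-values follow Benjamini and Hochberg across the 19938 genes, and those under 0.05 were called. The p-values measure the spread between the 3 biological replicates of a day, all from 1 line. A peak or dip had to pass in the contrast and against day 0 and day 3 each.

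Named genes were the 15 largest peaks and dips whose day 1 arrays lay apart from days 0 and 3, the 5 largest other calls in each direction, up to 4 called members of each of 37 gene lists with the smallest adjusted p and up to 3 called in the opposite direction, and genes named by the study. Clone and predicted symbols, microRNAs and small nucleolar RNAs were left out of this rule. The members and lists were chosen with earlier results of these data known. The gene families described as gathered later, the further genes so described and the correction for gene length were chosen after the values were seen. The correction smoothed each array's deviations from the gene means against the log10 genomic span (lowess, span 0.3). The alternatives were other variance models, normalizations, filters, probe set choices, array weights, a replicate block and the omission of each array. The test was checked on simulated data. Other steps used Python 3.11.15 with pandas 2.3.3, numpy 2.4.6 and matplotlib 3.10.9.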

Additional observations from a re-analysis of the deposited data

Results flagged for a closer look

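The probe sets that carry no gene symbol or several symbols enter none of the comparisons by gene. Among these 13768 probe sets, 179 were higher and 246 lower at day 1 than the average of days 0 and 3. They were called by limma at an adjusted p under 0.05, with the adjustment made over all probe sets of the array. Among the 12147 with no symbol, 141 were higher and 216 lower, with 36 peaks and 39 dips. Among the 1621 with several symbols, 38 were higher and 30 lower, with 10 peaks and 3 dips. What these probe sets measure was not tested.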

How the results depend on the processing

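None of the 135 named genes reversed direction under any alternative run, and 41 of the 126 called kept their call under all of them. Bonferroni adjustment left 86 higher, 34 lower, 11 peaks and 0 dips, whereas array weights gave 2090, 1333, 591 and 215 in the same order. A trended and robust prior gave 567 peaks and 200 dips, and quantile normalization anew gave 192 dips. Asking for a difference of at least 0.5 from both days left 31 peaks and 3 dips. With any 1 array left out, the count higher ranged from 630 to 1416, that lower from 313 to 837, peaks from 196 to 414 and dips from 59 to 134. The lowest counts came without a day 1 array. The contrast sets the day 1 mean alone against the average of days 0 and 3, so losing a day 1 array costs it the most precision. The causes of these changes were not tested, except that leaving out an array leaves fewer samples.

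The replicate numbers did not pair the arrays: over 18 same-numbered pairs the correlation of deviations from the day means was between -0.17 and 0.071. With the replicate block there were 1052 higher, 580 lower, 293 peaks and 93 dips, and 9 named genes were no longer called. With 3 arrays a day, signal over background and the small size of the differences limit which turns can be seen.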
